A study of Mus musculus with 4 samples.

Results

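Matrix metalloproteinases (MMPs), the ADAMTS proteases, the related ADAMTS-like proteins and the tissue inhibitors of metalloproteinases (TIMPs) were examined in C2C12 cells, a mouse myoblast line that fuses into myotubes when serum is lowered. Members were chosen by gene symbol (Mmp, Adamts, Adamtsl and Timp with a number), with 1 probe set per gene, the brightest one carrying a single symbol. This gave 42 genes out of 18193 measured, of which 18 were Mmp, 15 Adamts, 5 Adamtsl and 4 Timp genes. A further 9 genes of these names in the RefSeq gene table were not analysed here. Cells stably expressing a short hairpin RNA against LSD1 (shLSD1, 2 arrays) were compared with cells stably expressing a non-targeting hairpin (shControl, 2 arrays), both kept under hygromycin and both collected 48 hours after the change to differentiation medium. LSD1, encoded by Kdm1a, is a histone demethylase that acts in repressor complexes. The labels describe 1 stable selection per hairpin and do not state whether it was a clone or a pool, so selection and knockdown cannot be told apart. The labels also do not say that the arrays of a group came from separate cultures, so the p-values rest on a spread between arrays that may be technical only.

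MMPs and ADAMTS enzymes are zinc-dependent proteases made as inactive precursors. MMPs cleave collagens, basement membrane proteins and other matrix and cell-surface proteins, and ADAMTS enzymes cleave proteoglycans such as versican and aggrecan, procollagens and microfibril proteins. ADAMTS-like proteins share the ancillary domains of ADAMTS enzymes but lack the protease domain, and TIMPs bind the active site of the enzymes and block it. In muscle, MMP2 and its membrane-anchored activator MMP14 remodel the matrix around migrating and fusing myoblasts, and ADAMTS5 clears versican around them.

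Each value is a MAS5 signal, a linear intensity per probe set. The 4 arrays had median signals of 67.3 to 69.7 over 45101 probe sets, and the small number of arrays limits the precision. Kdm1a had signals of 922 and 1034 on the shLSD1 arrays, against 4603 and 4588 on the shControl arrays (log2 fold change -2.23, SE 0.07, limma adjusted p = 2.91e-05), so the targeted transcript was lower in the libraries labelled as its knockdown. All 7 muscle markers (Myod1, Myog, Des, Ckm, Acta1, Tnnt3 and Myh3) passed the signal filter (a mean log2 signal above 6.03, a signal of 65.6), 5 of them fell and 0 rose, and their summed signal was 81158 to 89100 in shLSD1 cells, against 118155 to 119769 in shControl cells. Among markers of other cell types 1 fell and 2 rose, and each of these passed the filter only through the group where it was high. Of all 10874 genes that passed the filter, 7.09% fell and 8.75% rose.

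Of the 5 fibroblast markers 2 were tested, and they differed in direction. Lum fell (log2 fold change -1.60, SE 0.35, limma adjusted p = 0.0203), with shLSD1 signals of 58.8 and 33.1 that lay below the filter. That result did not hold without shControl replicate 1 (limma adjusted p = 0.162), without shControl replicate 2 (limma adjusted p = 0.0964), with no filter (0.0563) or without the intensity trend (0.0677). Pdgfra measured 0.37 (limma adjusted p = 0.222), with 412 and 290 in shLSD1 cells, against 248 and 287 in shControl cells, and did not overlap. Thy1, Dpt and Tcf21 had a mean over the arrays below the filter, with log2 differences of -0.27, -3.22 and -0.43. Dpt had signals of 8.42 and 8.39 in shLSD1 cells, against 83.3 and 73.2 in shControl cells. Dpt and Tcf21 did not overlap between the groups, and Thy1 did. The 5 fibroblast markers summed to 396 to 577 in shLSD1 cells, against 574 to 593 in shControl cells. Of the 5 epithelial markers 3 were tested. Cdh1 (1.38, SE 0.25, limma adjusted p = 0.00998, and 0.0625 without shControl replicate 2) and Ocln (2.11, SE 0.30, limma adjusted p = 0.00349) rose, with shControl signals of 60.1 and 51.9 and of 34.1 and 35.4, all below the filter. Krt8 measured 0.53 (limma adjusted p = 0.258). Krt18 and Epcam lay below the filter, with log2 differences of -0.40 and -0.45, and only Krt18 did not overlap between the groups. The 5 epithelial markers summed to 414 to 444 in shLSD1 cells, against 195 to 204 in shControl cells, a difference carried mostly by Cdh1 and Ocln. The 5 measured osteoblast and chondrocyte markers summed to 666 to 708 in shLSD1 cells, against 489 to 600 in shControl cells, with Sox9 at 0.49 (limma adjusted p = 0.0580) and 0 called. All 5 endothelial markers had a mean over the arrays below the filter. Tek had signals of 66.9 and 109 in shLSD1 cells, against 27.8 and 26.4 in shControl cells. Kdr and Emcn were lower in shLSD1 cells without overlap, with log2 differences of -0.76 and -1.28. Pecam1 (-0.45) and Cdh5 (0.20) overlapped. Means below the filter were also found for 4 of 6 macrophage and leukocyte markers and 3 of 4 measured adipocyte markers. None of the others in these 2 lists was called. No marker was at 0. The part of these differences in the protease results was not tested, and in such bulk RNA fewer cells of a type and less RNA per cell cannot be told apart.

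Of the 42 members, 25 had a mean log2 signal over the 4 arrays above the filter, which was the median of all probe sets (log2 signal 6.03, a signal of 65.6), and were tested. In shLSD1 cells 8 of them fell and 3 rose, and 14 did not pass the threshold of a Benjamini-Hochberg adjusted p of 0.05 in limma's test over all 10874 genes tested. Over all tested genes 15.8% passed, 7.09% falling and 8.75% rising. Among the 25 tested members, 32% fell and 12% rose. The median log2 fold change of the 25 was -0.11, beside 0.00 (0.0036) over all genes tested. The genes that fell were Mmp2, Mmp16, Mmp19, Adamts1, Adamts5, Adamts6, Adamts12 and Adamtsl3, and the genes that rose were Mmp11, Adamtsl4 and Adamtsl5. No Timp gene passed the test. The arrays of the groups did not overlap for all 11 called members and for 18 of the 25 tested members, 10 lower and 8 higher in shLSD1 cells. Of all tested genes, 60.1% did not overlap, 29.4% lower and 30.7% higher. Without shControl replicate 1, and equally without shControl replicate 2, 6 members passed: Mmp2, Adamts1, Adamts5, Adamts6, Adamtsl3 and Adamtsl5. These 6 were also the members with an adjusted p under 0.01.

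**Figure D1:**
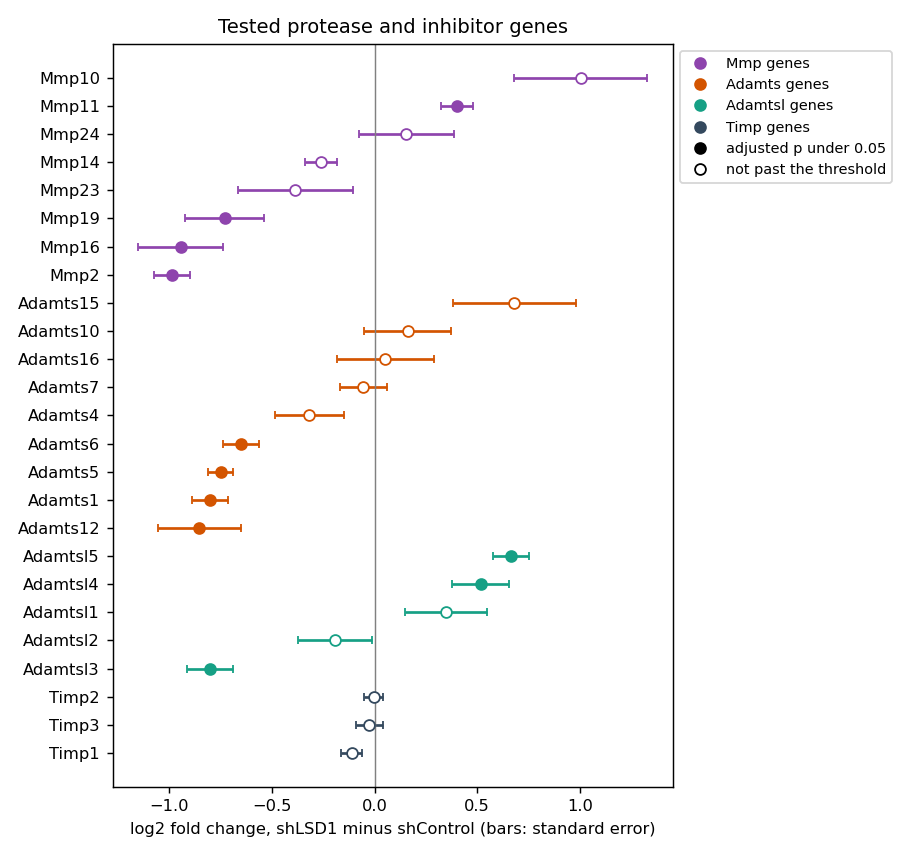
Log2 fold change (horizontal axis, shLSD1 minus shControl) of the 25 tested genes, grouped by family from Mmp at the top to Timp at the bottom, with standard errors as bars and filled points for an adjusted p under 0.05. The 3 tested Timp genes lie near 0, while 8 Mmp, Adamts and Adamtsl genes lie to the left as called falls and 3 to the right as called rises.

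**Figure D2:**
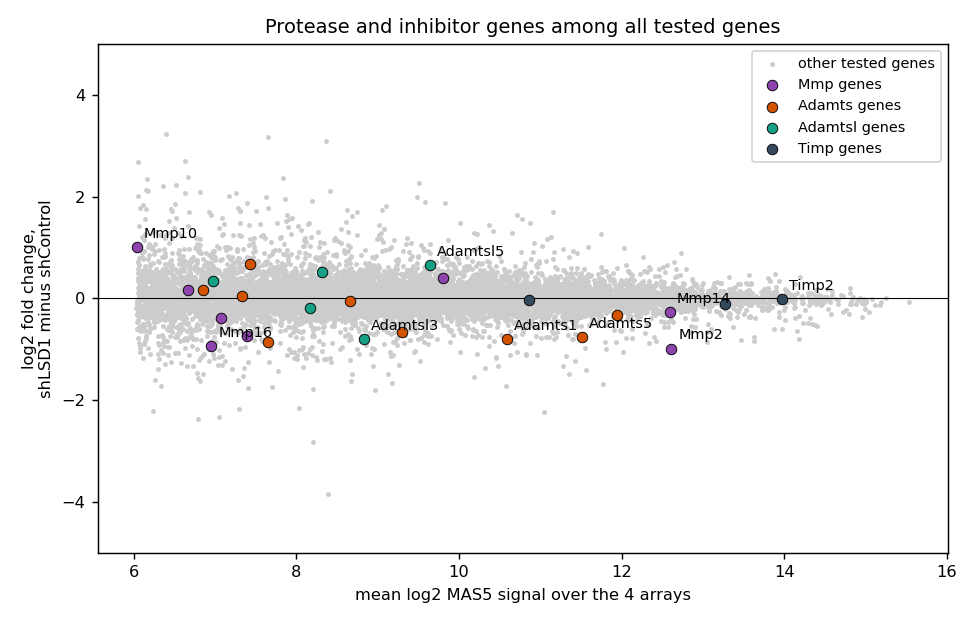
Log2 fold change (vertical axis, shLSD1 minus shControl) against mean log2 MAS5 signal (horizontal axis) for all 10874 tested genes in grey, with the 25 family members in colour. Mmp2 and Adamts5 lie below most genes of like signal, Timp2 lies near 0, and Mmp10 sits at the left edge, just above the signal filter.

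The gelatinase gene Mmp2, whose product degrades denatured collagen and the collagen of basement membranes, fell in shLSD1 cells. Its signals were 4912 and 4023 on the shLSD1 arrays, against 8631 and 8972 on the shControl arrays. Both shLSD1 arrays were low and the groups did not overlap. The mean was 4468 ± 628 in shLSD1 cells and 8801 ± 241 in shControl cells (SD, n = 2 each), a change on the log2 scale of -0.99 (SE 0.09, limma adjusted p = 0.000646). This left 50.5% of the control level. A second Mmp2 probe set gave 3872 and 3119 in shLSD1 cells, against 7566 and 7387 in shControl cells, a log2 difference of -1.11 (limma adjusted p = 0.000423 over every probe set). The other gelatinase gene, Mmp9, was dim, with signals of 18.7 and 37.2 in shLSD1 cells and 42.7 and 49.3 in shControl cells, and was not tested.

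Of the membrane-type genes, whose products are anchored at the cell surface, Mmp16 fell and Mmp14 and Mmp24 did not pass the test. Mmp14, which activates the MMP2 precursor in a complex with TIMP2, had signals of 6145 and 5175 in shLSD1 cells, against 6658 and 6873 in shControl cells. The groups did not overlap, but the shLSD1 arrays lay farther apart than the shControl arrays. The log2 fold change was -0.26 (SE 0.08, limma adjusted p = 0.0620), and without shLSD1 replicate 1 it was -0.39 and passed (limma adjusted p = 0.000679), while without shLSD1 replicate 2 it was -0.14 (limma adjusted p = 0.0632). The other Mmp14 probe sets gave log2 differences of -0.19 and -0.32, neither past the threshold. Mmp16 had signals of 86.9 and 91.6 in shLSD1 cells, against 183 and 161 in shControl cells, a change on the log2 scale of -0.94 (SE 0.21, limma adjusted p = 0.0206). That call was lost without shControl replicate 1 (limma adjusted p = 0.168) and without shControl replicate 2 (limma adjusted p = 0.0975). The Mmp16 call was also lost with no filter. A second Mmp16 probe set above the filter overlapped between the groups. It had signals of 99.5 and 124 in shLSD1 cells and 107 and 124 in shControl cells. The probe sets of this gene thus did not give the same picture. Mmp24 measured 0.16 (SE 0.23, limma adjusted p = 0.699), and Mmp17 lay below the filter in both groups.

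Mmp19, whose product cleaves basement membrane proteins, fell with more scatter. Its signals were 141 and 121 in shLSD1 cells, against 197 and 239 in shControl cells, a change on the log2 scale of -0.73 (SE 0.19, limma adjusted p = 0.0397). The groups did not overlap, but leaving out shLSD1 replicate 2, shControl replicate 1 or shControl replicate 2 raised the limma adjusted p to 0.0796, 0.107 and 0.247. Its second probe set gave a log2 difference of -0.63 (limma adjusted p = 0.171 over every probe set). Mmp23, a small membrane-bound enzyme without the hemopexin domain, had signals of 90.6 and 152 in shLSD1 cells, against 169 and 140 in shControl cells, and the groups overlapped (log2 fold change -0.39, SE 0.28, limma adjusted p = 0.397). It measured -0.013 without shLSD1 replicate 1 and -0.76 without shLSD1 replicate 2, and passed in neither fit. A second Mmp23 probe set gave 37.0 and 91.0 in shLSD1 cells, against 88.2 and 162 in shControl cells. Its groups overlapped too (log2 difference -1.04, limma adjusted p = 0.198 over every probe set).

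Of the stromelysin genes, Mmp11 rose, Mmp10 did not pass the test and Mmp3 lay below the filter. Mmp11, which encodes stromelysin-3, a protease activated by furin inside the secretory pathway, had signals of 1020 and 1041 in shLSD1 cells, against 757 and 806 in shControl cells. Both shLSD1 arrays were higher than both shControl arrays, with a change on the log2 scale of 0.40 (SE 0.08, limma adjusted p = 0.0132). The call was lost without shControl replicate 1 (limma adjusted p = 0.116) and without shControl replicate 2 (limma adjusted p = 0.0653). The Mmp11 call was also lost without the intensity trend (limma adjusted p = 0.0588). Mmp10, which encodes stromelysin-2, had signals of 110 and 78.3 in shLSD1 cells, against 49.1 and 43.7 in shControl cells. The groups did not overlap, but the log2 fold change of 1.004 (SE 0.32) did not pass (limma adjusted p = 0.0764). Mmp10 had a mean log2 signal of 6.04, just above the filter, and was tested only because of its shLSD1 signals.

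Mmp10 belongs to a run of 10 neighbouring Mmp genes on chromosome 9. In the order of GRCm38.p6 they are Mmp13, Mmp12, Mmp1b, Mmp3, Mmp1a, Mmp10, Mmp8, Mmp27, Mmp20 and Mmp7. The run holds the collagenase genes, the stromelysin genes Mmp3 and Mmp10 but not Mmp11, and matrilysin. Of the 9 measured here, 8 stayed below the filter, with signals from 0.77 to 44.3 over both groups, and only Mmp10 was tested. The promoters of this run are shown for Mmp10 and for Mmp3, with Mmp1a between them, because both hold letters of an AP-1 site. Such letters were in 0 of the 6 called members with a promoter sequence. Mmp2, Adamts5 and Adamts6 were among the called members without one. The sequences are from RefSeq, build GRCm38.p6, and are the 250 bases before the annotated start, at chr9:7502092-7502341 for Mmp10 and chr9:7445572-7445821 for Mmp3, both on the plus strand. Capitals mark TGANTCA, the letters of an AP-1 site, which read the same on both strands, and TATAAA, read on the gene's own strand.
Mmp10: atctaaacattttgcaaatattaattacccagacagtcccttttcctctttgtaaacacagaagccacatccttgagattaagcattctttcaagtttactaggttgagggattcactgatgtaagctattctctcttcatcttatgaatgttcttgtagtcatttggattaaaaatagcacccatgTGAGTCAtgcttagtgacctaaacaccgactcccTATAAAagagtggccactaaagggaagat
Mmp3: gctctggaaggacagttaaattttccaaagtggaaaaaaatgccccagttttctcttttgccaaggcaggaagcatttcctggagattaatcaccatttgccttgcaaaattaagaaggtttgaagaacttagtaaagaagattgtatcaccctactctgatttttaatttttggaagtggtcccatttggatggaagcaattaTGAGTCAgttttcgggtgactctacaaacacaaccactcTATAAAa
The AP-1 letters stood 63 bases before the start of Mmp10 and 46 bases before that of Mmp3. They were found in 8 of the 9 measured genes of the run and in 0 of 18 other members with a promoter sequence, while 6.75% of all 32851 promoter windows of this length held them. TATAAA was found in 7 of the 9 and in 2 of the 18, against 7.59% of all windows. A member was counted if any window of its gene held the letters, while the percentages are shares of single windows.

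ADAMTS genes that passed the test all fell. Adamts1, whose product cleaves versican and aggrecan, had signals of 1072 and 1262 in shLSD1 cells, against 2026 and 2032 in shControl cells. Both shLSD1 arrays were low, with a change on the log2 scale of -0.80 (SE 0.09, limma adjusted p = 0.00120) and 57.3% of the control level remaining. Adamts5, the versicanase gene that is active around fusing myoblasts, had signals of 2160 and 2348 in shLSD1 cells, against 3835 and 3740 in shControl cells. Its log2 fold change was -0.75 (SE 0.06, limma adjusted p = 0.000441), which left 59.5%. Its other probe sets above the filter gave log2 differences of -0.61 and -0.51, both past the threshold (limma adjusted p = 0.00258 and 0.00300 over every probe set). When all probe sets of Adamts5 were averaged, including a dim one, the value was -0.67 and the call was lost (limma adjusted p = 0.237). Adamts1 and Adamts5 are direct neighbours on chromosome 16 in the order of GRCm38.p6, so they share position as well as direction.

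The other proteoglycanase genes did not pass. Adamts4 had signals of 2842 and 4365 in shLSD1 cells, against 4349 and 4432 in shControl cells. Only shLSD1 replicate 1 was low, and the groups overlapped (log2 fold change -0.32, SE 0.17, limma adjusted p = 0.246). Without shLSD1 replicate 2 it measured -0.63 and passed (limma adjusted p = 8.90e-05), and without shLSD1 replicate 1 it measured -0.0082 (limma adjusted p = 0.933). Adamts15 had signals of 157 and 306 in shLSD1 cells, against 138 and 135 in shControl cells, so the higher mean rests mostly on shLSD1 replicate 2 (log2 fold change 0.68, SE 0.30, limma adjusted p = 0.169). Without shLSD1 replicate 1 it measured 1.16 and passed (limma adjusted p = 0.00542), and without shLSD1 replicate 2 it measured 0.20 (limma adjusted p = 0.617). Its neighbour on chromosome 9, Adamts8, lay below the filter, as did Adamts9 and Adamts20.

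Adamts6, which encodes an enzyme of fibrillin microfibrils, had signals of 498 and 506 in shLSD1 cells, against 784 and 792 in shControl cells. The arrays of each group lay close together, and the log2 fold change was -0.65 (SE 0.09, limma adjusted p = 0.00268). Its dimmer probe set did not show this, with 115 and 116 in shLSD1 cells and 112 and 127 in shControl cells, and the mean of both probe sets measured -0.35 (limma adjusted p = 0.135). Adamts12, whose product cleaves cartilage oligomeric matrix protein (COMP), had signals of 177 and 126 in shLSD1 cells, against 288 and 254 in shControl cells, a change on the log2 scale of -0.85 (SE 0.20, limma adjusted p = 0.0271). Without shControl replicate 1 or shControl replicate 2 the call was lost (log2 fold changes -0.76 and -0.95). It was also lost with no filter (limma adjusted p = 0.0617) and without the intensity trend (0.0851). Adamts7, which also encodes a COMP-cleaving enzyme, measured -0.06 (SE 0.12, limma adjusted p = 0.787). Adamts10 measured 0.16 (SE 0.21, limma adjusted p = 0.659). Adamts16 measured 0.05 (SE 0.24, limma adjusted p = 0.909) on its brightest probe set, while its second probe set gave 44.3 and 75.6 in shLSD1 cells, against 174 and 159 in shControl cells (log2 difference -1.52, limma adjusted p = 0.0152 over every probe set).

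**Figure D3:**
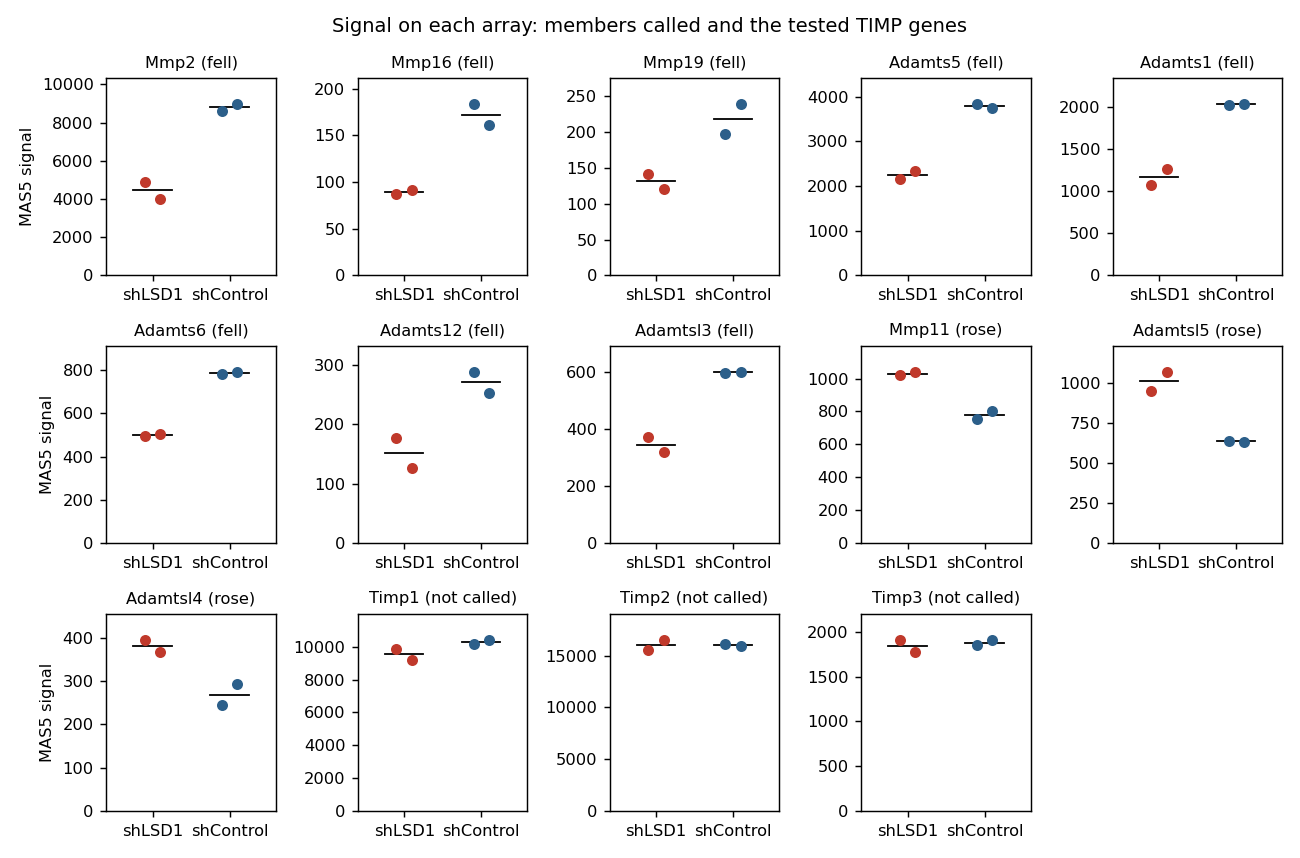
MAS5 signal on each array (vertical axes, linear and starting at 0) for the 11 called members and the 3 tested Timp genes, with shLSD1 arrays in red on the left, shControl arrays in blue on the right and group means as lines. The points of the groups are apart in all 11 called members, and those of Timp2 and Timp3 overlap.

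Promoters of members that moved are shown to set beside those of the chromosome 9 run. They are the 250 bases before the annotated start (RefSeq, GRCm38.p6), at chr16:85803114-85803363 on the minus strand for Adamts1, chr7:82335444-82335693 on the plus strand for Adamtsl3 and chr10:75932503-75932752 on the minus strand for Mmp11. Capitals mark GGGCGG or its other strand CCGCCC, the letters of a GC box, and TATAAA.
Adamts1: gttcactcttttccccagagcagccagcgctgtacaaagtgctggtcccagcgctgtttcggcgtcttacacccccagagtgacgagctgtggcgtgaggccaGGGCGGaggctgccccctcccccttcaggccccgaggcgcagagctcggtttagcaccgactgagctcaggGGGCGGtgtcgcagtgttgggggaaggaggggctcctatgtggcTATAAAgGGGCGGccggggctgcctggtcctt
Adamtsl3: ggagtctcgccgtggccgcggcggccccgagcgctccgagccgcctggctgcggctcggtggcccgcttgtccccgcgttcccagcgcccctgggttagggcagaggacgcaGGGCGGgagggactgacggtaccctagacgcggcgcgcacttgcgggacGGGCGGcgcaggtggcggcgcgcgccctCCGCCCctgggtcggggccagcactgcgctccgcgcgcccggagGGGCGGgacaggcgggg
Mmp11: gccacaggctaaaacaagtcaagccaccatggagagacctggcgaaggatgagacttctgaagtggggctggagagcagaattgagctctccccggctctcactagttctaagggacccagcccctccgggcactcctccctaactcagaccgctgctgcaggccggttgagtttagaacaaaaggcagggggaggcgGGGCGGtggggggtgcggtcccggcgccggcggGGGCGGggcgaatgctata
A GC box stood in 5 of the 6 called members with a promoter sequence. It stood in 15 of the 18 matched members outside the chromosome 9 run and in 0 of the 9 in it. Of all promoter windows 32.7% held one, where members were again counted by gene and the percentage by single window. These letters did not separate falls from rises, since Adamts1 and Adamtsl3 fell and Mmp11 rose. The matched letters of different motifs did not overlap in the printed promoters. Sequences were matched for 27 of the 42 members and for 6 of the 11 called members, with none for Mmp2, Adamts5 or Adamts6. A match is a description of letters, not of a bound site.

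The ADAMTS-like genes, all 5 of which passed the filter, went both ways. Adamtsl3 had signals of 371 and 319 in shLSD1 cells, against 599 and 601 in shControl cells, a change on the log2 scale of -0.80 (SE 0.11, limma adjusted p = 0.00368). Adamtsl5, whose product binds fibrillin microfibrils, had signals of 950 and 1069 in shLSD1 cells, against 638 and 634 in shControl cells, a change on the log2 scale of 0.66 (SE 0.09, limma adjusted p = 0.00289). Its second probe set gave 0.27 (limma adjusted p = 0.117 over every probe set). Adamtsl4, mutated in human lens dislocation, had signals of 396 and 368 in shLSD1 cells, against 244 and 293 in shControl cells (log2 fold change 0.52, SE 0.14, limma adjusted p = 0.0440). This was the call nearest to the threshold, and it held in 6 of 14 alternative fits. It was lost without shLSD1 replicate 1, without shControl replicate 1 and without shControl replicate 2 (log2 fold changes 0.46, 0.38 and 0.65). It was also lost with quantile normalization (limma adjusted p = 0.0524), no filter (0.0826), no intensity trend (0.0865), the mean of probe sets (0.0726) and every probe set (0.0512). Adamtsl1 measured 0.35 (SE 0.20, limma adjusted p = 0.284), with other probe sets at -0.14 and 0.59. Adamtsl2, whose product binds fibrillin and the latent TGF-beta binding proteins, measured -0.19 (SE 0.18, limma adjusted p = 0.525).

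The inhibitor genes showed no call. Timp2, whose product both inhibits MMPs and helps MMP14 to activate MMP2, had signals of 15514 and 16543 in shLSD1 cells, against 16173 and 15966 in shControl cells. The groups overlapped, and the log2 fold change was -0.00 (-0.0044, SE 0.05, limma adjusted p = 0.963), with the other probe sets between -0.24 and 0.10. Timp3, which encodes the matrix-bound inhibitor of ADAMTS as well as MMP enzymes, had signals of 1913 and 1779 in shLSD1 cells and 1848 and 1909 in shControl cells (-0.03, SE 0.07, limma adjusted p = 0.826). Timp1, a secreted inhibitor, had signals of 9874 and 9213 in shLSD1 cells, against 10189 and 10435 in shControl cells (-0.11, SE 0.05, limma adjusted p = 0.169). Its groups did not overlap, and without shLSD1 replicate 1 it measured -0.16 and passed (limma adjusted p = 0.0217), while without shLSD1 replicate 2 it measured -0.062 (limma adjusted p = 0.312). Timp4, the inhibitor gene best known from heart and skeletal muscle, had signals of 14.4 and 13.1 in shLSD1 cells, against 51.1 and 55.3 in shControl cells. Both shLSD1 arrays were lower, but all 4 values lay below the filter, where MAS5 signals are least precise, and the gene was not tested.

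**Figure D4:**
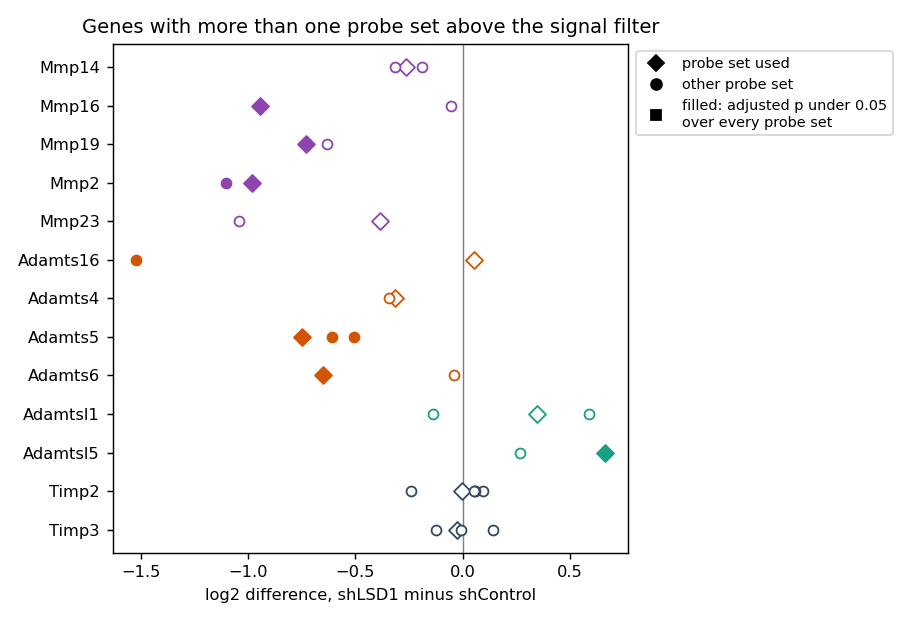
Log2 difference (horizontal axis, shLSD1 minus shControl) of each probe set above the filter for the 13 tested members with more than one, with diamonds for the probe set used and filled symbols for an adjusted p under 0.05 over every probe set. The probe sets of Mmp2 and Adamts5 lie together on the left, while those of Mmp16, Mmp23, Adamts6, Adamts16 and Adamtsl1 are far apart.

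Of the 11 called members, 6 had another probe set above the filter, and all of these other probe sets had the same sign as the one used. For Mmp16 and Adamts6 they were close to 0, at -0.05 and -0.04. The 17 members below the filter ranged from 0.77 to 66.5 in signal. They were the collagenase genes Mmp1a, Mmp1b, Mmp8 and Mmp13, then Mmp3, Mmp7, Mmp9, Mmp12, Mmp17, Mmp20, Adamts3, Adamts8, Adamts9, Adamts18, Adamts19, Adamts20 and Timp4. The arrays of the groups did not overlap for 9 of the 17, with 7 lower and 2 higher in shLSD1 cells, while 35.8% of all genes below the filter did not overlap and 19.0% were lower. Mmp13 had signals of 0.955 and 5.05 in shLSD1 cells, against 12.02 and 13.5 in shControl cells. Such values are close to the bottom of the scale.

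Genes that act with these enzymes were counted from lists of related genes. Of 20 measured activators, receptors and other inhibitors, 10 were tested, 3 rose and 1 fell, with a median log2 fold change of 0.12, while over all tested genes 8.75% rose and 7.09% fell. Plaur, which encodes the urokinase receptor that focuses plasmin activation at the cell surface, had signals of 916 and 1076 in shLSD1 cells, against 519 and 426 in shControl cells (1.08, SE 0.13, limma adjusted p = 0.00162). Plat, the tissue plasminogen activator gene, rose on the log2 scale by 0.47 (SE 0.07, limma adjusted p = 0.00601). The call did not hold without shControl replicate 1, without the intensity trend or with the mean of its probe sets, which measured 0.02. Cd44, a hyaluronan receptor gene, rose by 0.29 (limma adjusted p = 0.00393), and Lrp1, which encodes an endocytic receptor that clears MMPs and ADAMTS enzymes, fell by 0.33 (limma adjusted p = 0.0135). The Cd44 and Lrp1 calls were lost without either shControl array, and the means of their probe sets measured 0.03 and -0.11. Both calls were also lost in those means (limma adjusted p = 0.955 and 0.510) and without the intensity trend (0.0831 and 0.114). Plau, the urokinase gene, measured 0.62 (limma adjusted p = 0.0741). Reck, which encodes a membrane-anchored MMP inhibitor, measured -0.31 (limma adjusted p = 0.293). Bsg, which encodes the MMP inducer basigin, measured 0.10 (limma adjusted p = 0.186).

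Of 19 tested genes for other pericellular proteases, 4 rose and 2 fell, with a median of 0.04, while 8.75% of all tested genes rose and 7.09% fell. Adam12, a metalloprotease gene expressed in fusing and regenerating muscle, had signals of 308 and 345 in shLSD1 cells, against 1035 and 1018 in shControl cells (-1.66, SE 0.10, limma adjusted p = 0.000105). Adam8 had signals of 431 and 403 in shLSD1 cells, against 121 and 149 in shControl cells (1.63, SE 0.16, limma adjusted p = 0.000866). Adam22, which encodes a member without protease activity, had 168 and 153 in shLSD1 cells, against 57.8 and 41.5 in shControl cells (1.71, SE 0.28, limma adjusted p = 0.00636). Both shControl signals lay below the filter value, so Adam22 was tested, and counted among the rises, only because of its shLSD1 signals. Fap, a cell-surface serine protease gene of activated fibroblasts, fell on the log2 scale by 0.99 (SE 0.15, limma adjusted p = 0.00526, and 0.0664 without shControl replicate 1). Adam10 rose by 0.32 and Ctsz, the cathepsin Z gene, by 0.22, and both calls were lost without either shControl array. Both were also lost without the intensity trend (limma adjusted p = 0.0795 and 0.131), and Adam10 with the mean of its probe sets (0.154).

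Genes for substrates of these enzymes that passed the test all fell: of 14 tested, 7 fell and 0 rose, with a median of -0.28, beside 7.09% falling and 8.75% rising over all tested genes. Thbs1, the thrombospondin gene, had signals of 5762 and 6923 in shLSD1 cells, against 11121 and 11799 in shControl cells (-0.86, SE 0.08, limma adjusted p = 0.000829). Bgn, which encodes the proteoglycan biglycan, fell by 0.52 on the log2 scale, Col1a2 by 0.39, Col3a1 by 0.31 and fibronectin (Fn1) by 0.27. The Col1a2, Col3a1 and Fn1 calls were lost without either shControl array. These and the Bgn call (limma adjusted p = 0.0592) were lost without the intensity trend. The Fn1 call was also lost with the mean of probe sets (limma adjusted p = 0.0698). Col1a1 fell by 0.80 (SE 0.20, limma adjusted p = 0.0320), with signals of 2652 and 1595 in shLSD1 cells, against 3590 and 3549 in shControl cells. It measured -1.16 without shLSD1 replicate 1, -0.43 without shLSD1 replicate 2 and -0.46 as the mean of its probe sets. The Col1a1 call was lost in that mean, without shControl replicate 1 or shControl replicate 2 (limma adjusted p = 0.156 and 0.145), with no filter (0.0692), without the intensity trend (0.160) and with robust variance (0.0806). Vcan, the versican gene, had signals of 3324 and 2522 in shLSD1 cells, against 3596 and 3512 in shControl cells. It did not pass (-0.30, SE 0.11, limma adjusted p = 0.127), although without shLSD1 replicate 1 it measured -0.49 and did (limma adjusted p = 0.000512), and without shLSD1 replicate 2 it measured -0.096 (limma adjusted p = 0.260). Among 3 tested genes that share domains with the ADAMTS-like proteins, 1 fell and 0 rose, with a median of -0.38 (7.09% and 8.75% over all tested genes). It was the matrix gene Cilp, with signals of 96.4 and 80.6 in shLSD1 cells, against 1273 and 1270 in shControl cells (-3.85, SE 0.13, limma adjusted p = 2.91e-05). The list was chosen with earlier results of these data known, so its count is a description only.

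**Figure D5:**
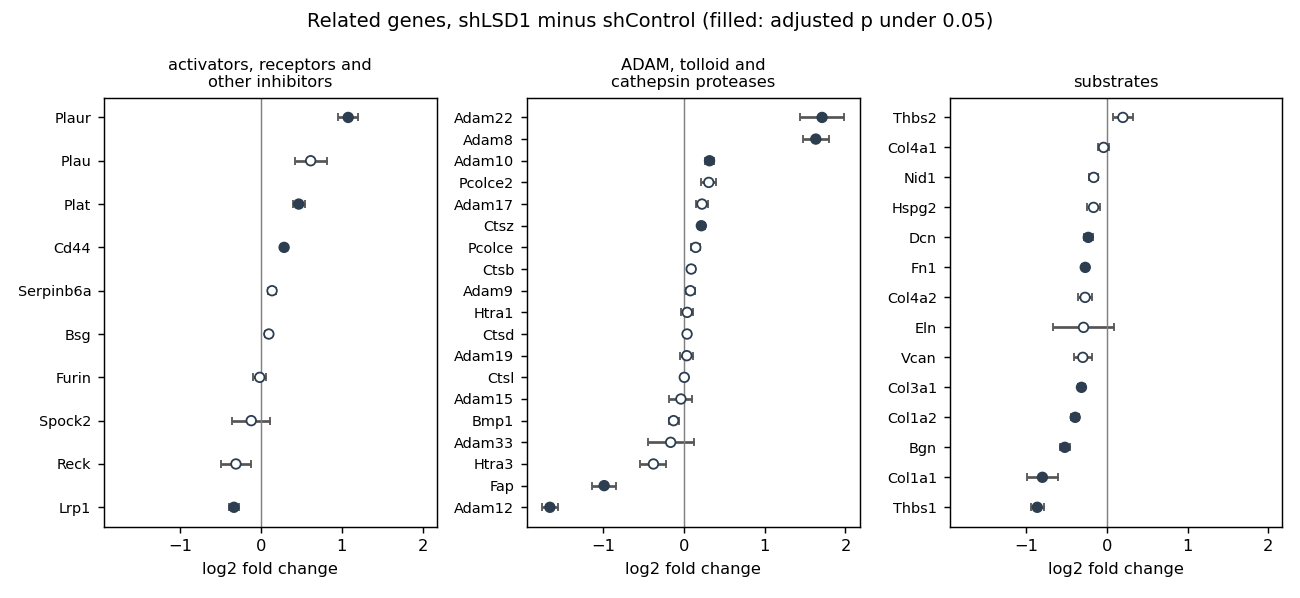
Log2 fold change with its standard error (horizontal axes, shLSD1 minus shControl) for the tested genes of 3 related lists, with filled points for an adjusted p under 0.05. Adam12 and Adam22 lie at opposite ends among the other proteases, and all substrate genes past the threshold lie to the left of 0.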

How the data were processed

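Expression was measured on 4 Affymetrix arrays, 2 shLSD1 and 2 shControl, from C2C12 cells grown with 750 µg/mL hygromycin B and moved to 2% horse serum for 48 hours, per the labels' protocols. The deposited values are signal intensities per probe set on a linear scale, made by the authors with MAS5 and Affymetrix Expression Console, per the submitters' processing notes; for these tools, version numbers were not given in the sources used here. Trimmed by 2% at each end, the mean of every array was 500.003, so each had been scaled by 1 factor. Signals under 1 were set to 1 and log2 was taken. The annotation gave a single symbol to 34945 of 45101 probe sets, several to 932 and none to 9160, with 64 control probe sets left out. The gene table of GRCm38.p6 changed 0 symbols. Probe sets ending in _x_at were avoided where another existed. Genes above the median mean log2 signal were tested with limma 3.58.1 in R 4.3.3 (lmFit, eBayes with a variance trend on intensity and 7.53 degrees of freedom in total, two-sided, Benjamini-Hochberg adjustment over 10874 genes). The method was tested on simulated data. Every log2 fold change is shLSD1 minus shControl. Named are Kdm1a, all tested members, up to 6 called genes of each related list, Reck, Plau, Bsg and Vcan, and called markers of other cell types. Mmp13 and Mmp9, which were dim, markers that were not called and probe sets that disagreed were named after their values were seen. The members and lists were chosen with earlier results of these data known. The replicate numbers did not pair the arrays. The alternatives tried were leaving out each array, a replicate block, other normalizations, filters, variance models, probe set rules and thresholds, and log2(signal + 32).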

Additional observations from a re-analysis of the deposited data

How the results depend on the processing

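Of the 11 members called, 4 (Mmp2, Adamts1, Adamtsl3 and Adamtsl5) passed under all of the 15 alternative fits in which they were tested. The count of members called was 6 to 13 over the fits that leave out 1 array, 6 without shControl replicate 1 and without shControl replicate 2, 7 when dim probe sets were kept, 6 with the stricter filter at log2 8.92, 7 without the intensity trend, 5 when the probe sets of a gene were averaged and 6 at an adjusted p of 0.01. The median log2 fold change of the tested members was -0.139 to -0.013 over the fits that leave out 1 array, -0.23 with no filter, -0.26 with the stricter filter and -0.19 with the mean of probe sets. The count over all genes tested, 1722, was 580 to 2191 with 1 array left out, 639 without the intensity trend, 900 with the mean of probe sets, 764 at an adjusted p of 0.01 and 2593 at 0.1. With the stricter filter, 11 members were tested, and with the mean of probe sets 21, so these counts come from fewer genes; the cause of the other shifts was not tested. Signs turned only among members that were not called. Over the fits that leave out 1 array, Adamts16 ranged from -0.23 (without shLSD1 replicate 2) to 0.34, with -0.086 without shControl replicate 1, Adamts7 from -0.15 to 0.039 (without shControl replicate 2), Adamtsl2 from -0.44 to 0.056 (without shLSD1 replicate 1), Timp2 from -0.051 to 0.042 (without shLSD1 replicate 1), with 0.0049 without shControl replicate 1, and Timp3 from -0.079 to 0.026 (without shLSD1 replicate 2). Adamts16 measured -0.74 with the mean of probe sets, and Timp2 0.0063 with quantile normalization and 0.0031 with the mean of probe sets. The replicate numbers are shared labels only: the deviations of replicate 1 in shLSD1 cells and in shControl cells correlated at 0.003 across tested genes, which are not independent. With the replicate block, 13 members passed, the 11 among them, with Mmp14 and Adamts4 added, and 2221 genes in all. Where 1 array of a group remained, it was assumed to vary like the other group. With 2 arrays a group and signals near background for 17 members, the dim genes were not tested.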
